A study of Homo sapiens with 18 samples.

Results

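The genes of cholesterol and fatty acid synthesis were followed in lung epithelial and lung cancer cells before and after X-ray irradiation. The 29 members were chosen by symbol, as enzymes and regulators of lipid synthesis under sterol regulatory element-binding proteins (SREBPs), and all 29 were found among the 18475 genes measured. They fall into 7 genes of the mevalonate pathway, 11 of squalene and sterol synthesis, 7 of fatty acid synthesis, and 4 regulators or sterol transfer genes. RNA-seq was performed on BEAS-2B (a non-tumour bronchial epithelial line immortalised with a viral hybrid), H446 (a small cell lung cancer line) and A549 (a lung adenocarcinoma line, a non-small cell cancer). Each line was represented by 3 unirradiated control libraries and 3 libraries collected 24 h after 10 Gy. No gene was altered by design in any group, each line is a single established line, and although the study states in general that experiments were repeated, no source used here ties the 3 libraries of a group to separate cultures, so that p-values measure the spread between these libraries, which may be technical. The comparisons ask how lipid synthesis genes differ between the unirradiated lines, and how they change after irradiation in each.

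Cells make cholesterol from acetyl-CoA through mevalonate, isoprenoid units, squalene and lanosterol, and make fatty acids from the same acetyl-CoA through malonyl-CoA. SREBF1 and SREBF2 encode precursors held in the endoplasmic reticulum, and when sterols are scarce the escort protein SCAP carries them to the Golgi, where proteases release the part that enters the nucleus and binds sterol regulatory elements (SREs) in promoters. INSIG1 retains SCAP when sterols are plentiful and is itself an SREBP target, while liver X receptors raise SREBF1, and in lung epithelium fatty acid synthesis also supplies surfactant lipid.

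Promoter sequence was read from RefSeq (GRCh38.p14, 250 bases before to 50 after each start), where 25 of 29 members had a window. FDFT1, FASN, SQLE and ACAT2 were not among them. On both strands, the SRE letters TCACNCCAC occurred in 1 of 25 members (4.0%) and in 1.6% of the 14417 genes with a window. Allowing 1 mismatch to TCACCCCAC, a search added after the data were seen, gave 6 members (24.0%) and 14.3% of genes. The CCAAT box, bound by the SREBP partner NF-Y, occurred in 20 members (80.0%) against 42.5% of genes, and the GC box GGGCGG in 24 (96.0%) against 68.6%. The E-box CACGTG occurred in 3 members, against 11.4% of genes. The letters of an SRE with up to 1 mismatch do not overlap those of the CCAAT box in the windows below. A match describes letters only. SREBF2 is printed because it held the only exact SRE among the members, and HSD17B7, INSIG1 and TM7SF2 because they had the 3 largest rises after irradiation in A549 cells. Capitals mark the SRE with up to 1 mismatch and each CCAAT box, on either strand (ATTGG where it lies on the other one). In SREBF2 (chr22:41832855-41833154, plus strand) the SRE began at base -133 and the CCAAT box at -106 relative to the start. In HSD17B7 (chr1:162790452-162790751, plus strand), which holds 2 CCAAT boxes, the SRE with 1 mismatch began at -98. In INSIG1 (chr7:155297628-155297927, plus strand) a CCAAT box began at -170 and an E-box at -55, and in TM7SF2 (chr11:65111622-65111921, plus strand) a CCAAT box began at -74.
SREBF2: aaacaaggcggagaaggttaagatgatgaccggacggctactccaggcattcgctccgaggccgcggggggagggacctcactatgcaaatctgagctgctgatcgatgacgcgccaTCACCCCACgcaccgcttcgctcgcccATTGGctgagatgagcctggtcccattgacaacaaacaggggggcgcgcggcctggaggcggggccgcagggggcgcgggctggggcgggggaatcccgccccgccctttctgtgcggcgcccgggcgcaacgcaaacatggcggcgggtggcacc
HSD17B7: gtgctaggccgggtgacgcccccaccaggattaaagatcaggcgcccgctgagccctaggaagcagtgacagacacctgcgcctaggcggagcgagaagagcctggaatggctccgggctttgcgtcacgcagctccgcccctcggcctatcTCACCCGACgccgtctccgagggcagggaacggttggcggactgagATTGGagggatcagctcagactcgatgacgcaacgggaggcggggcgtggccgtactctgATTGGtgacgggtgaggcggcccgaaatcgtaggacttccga
INSIG1: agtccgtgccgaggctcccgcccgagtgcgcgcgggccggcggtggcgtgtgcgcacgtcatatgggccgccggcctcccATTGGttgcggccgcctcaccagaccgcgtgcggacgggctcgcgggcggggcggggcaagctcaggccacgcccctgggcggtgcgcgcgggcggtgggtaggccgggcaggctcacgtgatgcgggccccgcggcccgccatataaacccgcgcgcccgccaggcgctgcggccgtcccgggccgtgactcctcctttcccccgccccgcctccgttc
TM7SF2: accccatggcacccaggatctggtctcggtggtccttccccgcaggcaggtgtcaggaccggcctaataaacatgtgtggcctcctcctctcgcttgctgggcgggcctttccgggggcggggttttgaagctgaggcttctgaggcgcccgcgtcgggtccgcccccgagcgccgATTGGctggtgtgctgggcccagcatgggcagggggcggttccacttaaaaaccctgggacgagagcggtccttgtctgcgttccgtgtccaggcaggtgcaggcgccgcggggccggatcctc

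Values are FPKM, fragments per kilobase of transcript scaled to sequencing depth, a unit inferred from the table. Total FPKM per library was 461255 to 529936, and the deepest library was 1.23 times as deep as the shallowest, from the steps between low values. The p53 targets CDKN1A and MDM2 were used to check the irradiated libraries. CDKN1A was 310, 102 and 488 FPKM in the 3 libraries labelled BEAS-2B 10 Gy against 79.9, 86.4 and 86.1 in their controls, and MDM2 was 47.5, 16.2 and 87.8 against 18.9, 17.5 and 18.2. The library labelled BEAS-2B 10 Gy replicate 2 therefore stood near the controls, and the BEAS-2B fold changes of the members named are also given without it. Whether it was irradiated as labelled cannot be told from these values, and irradiated BEAS-2B libraries below are those labelled so. In A549 cells CDKN1A rose from 103.0 ± 2.81 to 303.0 ± 13.0 FPKM (SD, n = 3), whereas in H446 cells it was 73.4 ± 2.09 and 67.3 ± 4.61 FPKM (SD, n = 3) and was not called (limma, adjusted p = 0.0642). CDKN1A thus did not mark the H446 libraries labelled 10 Gy. Within H446, genes rich in GC were lower in the irradiated libraries. Across genes, the Spearman correlation of a library's deviation with transcript GC content was 0.35 to 0.46 in the 3 controls and -0.50 to -0.11 in the 3 irradiated libraries, so H446 results are also given with each library's GC trend removed. In BEAS-2B it was -0.63 to 0.01 in controls and 0.45, 0.70 and -0.31 in the libraries labelled 10 Gy, and in A549 it lay between -0.13 and 0.17. The part of the GC trend in the results was not tested. Keratins KRT8 and KRT18 were at 353.0 FPKM or more in the controls of all lines. Among other epithelial genes, KRT19 had control means of 26.2 FPKM in A549, 9.80 in BEAS-2B and 2.29 in H446, CDH1 (E-cadherin) of 7.05, 0.46 and 0.587, and EPCAM of 0.487, 2.37 and 1.11. The neuroendocrine genes CHGA and SYP had means of 0.0167 and 0.19 FPKM in H446 controls, below the 1.01 and 1.99 in A549, while in BEAS-2B CHGA was listed at 0 and SYP was at 0.427. The alveolar type II genes NKX2-1, NAPSA, SFTPA1, SFTPB and SFTPC were at most 0.693 in A549 controls and at most 0.427 in the other lines. Of the leukocyte genes, PTPRC was at most 0.04 in all controls, CD14 had means of 0.427 FPKM in A549, 8.13 in BEAS-2B and 0.277 in H446, and CD68, a lysosomal protein also made outside leukocytes, 27.6, 9.74 and 8.56. After irradiation CD68 (log2 fold change 0.16 ± 0.06, adjusted p = 0.0363) and CDH1 (0.49 ± 0.07, 7.9e-05) rose in A549, and KRT18 (-0.20 ± 0.06, 0.0229) and KRT19 (-0.32 ± 0.08, 0.0131) fell in H446, where neither was called with the GC trend removed (-0.10 and -0.14). Of the fibroblast genes, PDGFRB was at 11.7 FPKM in BEAS-2B controls and at most 0.167 in the other lines, COL1A1 at 8.63 in A549, 8.40 in BEAS-2B and 4.30 in H446, DCN at 0.177, 0.01 and 3.27, COL3A1 at 0.153, 0.00333 and 1.09, and COL1A2 at 0.4 in BEAS-2B and listed at 0 in the other lines. The part of such cells in the results was not tested. Pseudogene copies are annotated for 5 members (FDPS, CYP51A1, HSD17B7, SCD and FADS2), and 8 overlap another coding gene, so reads of these may be shared.

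All 29 members were expressed in every line before irradiation. Control means ran from 5.9 to 190.0 FPKM in BEAS-2B (median 34.0), from 2.6 to 199.0 in H446 (median 33.6) and from 4.7 to 130.0 in A549 cells (median 17.9). Summed over the members, the 3 control libraries held 1219, 1227 and 1271 FPKM in BEAS-2B, 1463, 1461 and 1438 in H446, and 749, 753 and 761 in A549. The A549 libraries thus lay below all others. FDPS was the highest member in BEAS-2B (190.0 ± 10.6 FPKM) and H446 (199.0 ± 2.08), and ACLY in A549 (130.0 ± 3.17; SD, n = 3). The mean of 19 members was lowest in A549, of 6 in H446 and of 4 in BEAS-2B, and the highest mean was in BEAS-2B for 14, in H446 for 12 and in A549 for 3 members.

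**Figure D1:**
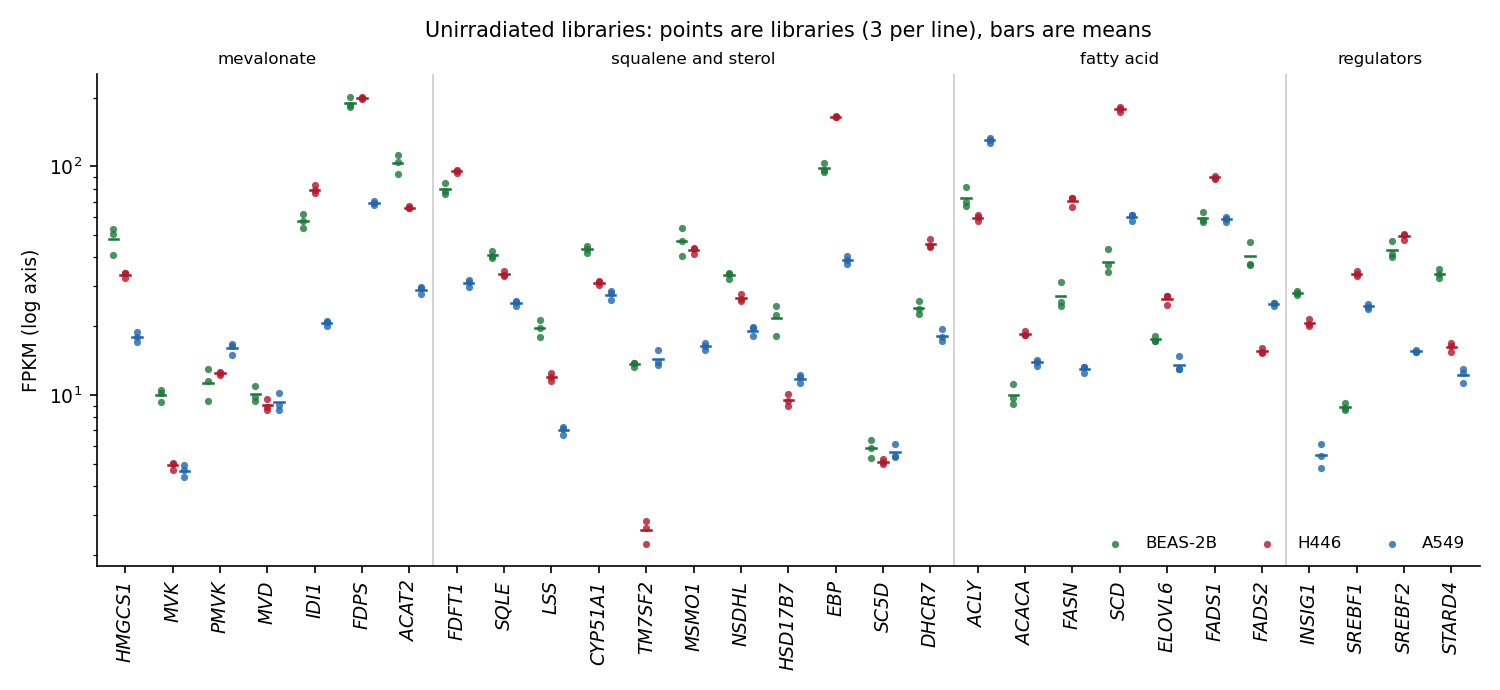
FPKM of the 29 members (log axis) in the unirradiated libraries of BEAS-2B, H446 and A549, ordered by role, with each library as a point and the mean of 3 as a bar. A549 has the lowest mean for 19 members, the points of MVD and SC5D lie close together in all lines, and TM7SF2 is lowest in H446 at 2.56 FPKM.

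Many cholesterol genes were lower in A549 than in BEAS-2B cells before irradiation. At an adjusted p under 0.05 in limma and an absolute log2 difference of at least 1 on the log2(FPKM + 1) scale, 11 members were lower and 1 was higher, that is 37.9% and 3.4% of them, where 14.2% and 12.9% of the 12854 genes tested were. In bulk RNA, fewer cells expressing a gene and less RNA of it per cell cannot be told apart. The median log2 difference over the members was -0.78, and -0.07 over all genes tested. Without the limit on the difference, 5 members were higher and 20 lower, where 38.8% and 46.3% of all genes were. By role it was -1.38 in the mevalonate pathway (4 of 7 lower), -0.78 in squalene and sterol synthesis (4 of 11 lower), -0.02 in fatty acid synthesis (0 of 7 called) and -1.40 among the regulators (3 of 4 lower).
The largest differences were in INSIG1, ACAT2 and MSMO1. INSIG1 was at 27.98, 27.3 and 28.6 FPKM in BEAS-2B and at 6.13, 5.42 and 4.80 in A549 controls, a log2 difference of -2.17 ± 0.07 (SE), 4.51-fold lower. ACAT2, the cytosolic acetoacetyl-CoA thiolase at the head of the pathway, was at 104, 92.96 and 113 against 29.4, 29.6 and 27.6 FPKM, a log2 difference of -1.80 ± 0.06. For MSMO1, which removes methyl groups from sterols, the control values were 47.4, 40.7 and 53.6 against 16.9, 15.7 and 16.3 FPKM (log2 difference -1.47 ± 0.08). None of these 3 pairs of groups overlapped, which is likely from their choice as the largest differences. The share of all genes without overlap was not counted. The other 8 lower members were FDPS, IDI1, SREBF2, STARD4, HMGCS1, LSS, FDFT1 and EBP, with log2 differences from -1.45 to -1.31.
SREBF1 was the 1 member called higher in A549, at 23.8, 24.4 and 25.1 FPKM against 8.81, 9.25 and 8.59, a log2 difference of 1.36 ± 0.05. Below the limit of 1 but past the adjusted p, PMVK and ACACA were higher (0.48 and 0.44), ACLY (ATP citrate lyase, the source of cytosolic acetyl-CoA) had a log2 difference of 0.83 ± 0.06 and the desaturase SCD one of 0.64 ± 0.07. On the lower side of the same range were FASN, whose value lay just inside the limit (SE 0.08, adjusted p = 6.9e-08), the kinase MVK (-0.96 ± 0.06), HSD17B7 (-0.81), NSDHL (-0.78), SQLE (-0.68), FADS2 (-0.67), CYP51A1 (-0.64), DHCR7 (-0.38) and ELOVL6 (-0.35), and with a pseudocount of 0.1 FASN (-1.05) and MVK (-1.09) passed the limit. SREBF1 and SREBF2 thus stood in opposite order in these lines, since SREBF2 was at 40.2, 47.2 and 41.4 FPKM in BEAS-2B and at 15.8, 15.5 and 15.4 in A549 controls (log2 difference -1.41 ± 0.06).

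Against BEAS-2B, H446 cells differed most in SCD and TM7SF2. In H446, 3 members were higher and 4 lower under the same limits, where 11.2% and 12.9% of all genes were. SCD, which makes monounsaturated fatty acids, was at 179, 182 and 174 FPKM in H446 and 36.99, 43.4 and 34.6 in BEAS-2B controls (log2 difference 2.19 ± 0.07). SREBF1 was at 33.95, 34.9 and 33.2 FPKM in H446 (1.82 ± 0.05), and FASN, the fatty acid synthase, at 72.7, 72.7 and 66.6 against 24.5, 31.4 and 25.6 (1.36 ± 0.08). For none of these 3 genes, again chosen by size, did the groups overlap. The sterol reductase TM7SF2 was the lowest by comparison, at 2.61, 2.24 and 2.82 FPKM in H446 and 13.8, 13.8 and 13.3 in BEAS-2B (-2.04 ± 0.07), followed by the desaturase FADS2 (-1.32 ± 0.07), HSD17B7 (-1.10 ± 0.09) and the sterol carrier STARD4 (-1.02 ± 0.06). STARD4 stood at the limit, at -0.99 without H446 control replicate 3 or without BEAS-2B control replicate 1. The 7 mevalonate genes held no call in this comparison, with log2 differences from -0.90 to 0.45. With a pseudocount of 0.1, 1 further member was called in it. Without the limit, 11 members were higher in H446 and 14 lower, where 36% and 46.7% of all genes were.
Against A549, 11 members were higher in H446 and 2 lower, where 13.4% and 14.7% of all genes were, and the members' median log2 difference was 0.60 against -0.01 over all genes. Without the limit, 21 were higher and 5 lower, where 41.4% and 43.1% of all genes were. The 3 largest were FASN (2.35 ± 0.08), with 12.5, 13.3 and 13.3 FPKM in A549 controls, EBP (2.06 ± 0.05), a sterol isomerase, and IDI1 (1.89 ± 0.05), the isopentenyl diphosphate isomerase. TM7SF2 (-2.11 ± 0.07) and ACLY (-1.11 ± 0.06) were the 2 lower members, TM7SF2 at 13.9, 13.6 and 15.7 FPKM in A549. The 3 comparisons share their control libraries and are therefore not independent.
Not all members separated the lines. MVD, the mevalonate diphosphate decarboxylase (control means 9.04 to 10.1 FPKM), and SC5D, a sterol desaturase (5.1 to 5.87 FPKM), had absolute log2 differences of at most 0.17 in all 3 comparisons. FADS1 differed by -0.02 ± 0.05 between A549 and BEAS-2B, where its libraries overlapped.

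After 10 Gy, 16 members were called in A549 cells, 14 in H446 cells and 0 in BEAS-2B cells, at an adjusted p under 0.05 in limma within each line. In A549, 11 members rose and 5 fell, where 25.3% and 26.4% of 11993 genes tested did; the members that fell were 17.2% of 29. In H446, 10 rose and 4 fell, where 14.8% and 23.6% of 11479 did; the members that fell were 13.8% of 29. With the GC trend removed in H446, 11 rose and 3 fell, against 15.9% and 15% of all genes, and the members called were in part others. With quantile normalization, 2 further members were called in H446 and 2 in A549, where 1 lost its call. In BEAS-2B, 0 members and 0% of 11734 genes were called in either direction. At an unadjusted p under 0.05 there was 1 member, ELOVL6, and 12.3% of all genes (1446), and without replicate 2 there were 3 (ELOVL6, FDFT1 and HSD17B7) and 11.8% (1387). Without replicate 2 of the irradiated BEAS-2B libraries, 0 members were called, where 1.97% of all genes were, and with the GC trend removed 0 members and 0% of all genes were (1124 genes at an unadjusted p under 0.05).
The counts in the cancer lines were smaller when all 18 libraries shared 1 fit, which gives each gene 1 spread for all lines. In A549, 8 members then rose and 4 fell, where 21.8% and 22.7% of all genes did, and IDI1 (adjusted p = 0.0535), ACAT2 (0.18), SQLE (0.0714) and ACACA (0.0757) lost their calls. In H446, IDI1, FDFT1, SQLE and MSMO1 rose and FADS1 and SREBF1 fell, where 10.3% and 17.8% of all genes did, while HMGCS1, FDPS, ACAT2, CYP51A1, HSD17B7, STARD4, FASN and SREBF2 lost their calls (adjusted p 0.0732 to 0.389).
The median log2 change over the members was 0.06 in A549, 0.02 in H446 (0.08 with the GC trend removed) and 0.07 in BEAS-2B (0.06 without replicate 2), beside -0.00, -0.03 (0.00) and 0.00 (-0.00) over all genes tested. The summed FPKM of the members after 10 Gy was 770, 782 and 771 in A549 and 1527, 1489 and 1479 in H446, in each case above all 3 controls, and 1338, 1260 and 1258 in BEAS-2B, where the lowest irradiated library lay below the highest control. The median FPKM of the members per library overlapped with the controls in both cancer lines. It was 17.98 to 18.63 against 17.0 to 18.81 in A549, and 32.72 to 34.37 against 32.55 to 33.95 in H446. Of the members called, 10 were called in both cancer lines (62.5% of those in A549, 71.4% of those in H446), 6 in the same direction and 4 in opposite directions. Of all genes tested in both, 2256 were called in both (40.1% and 53.8%), 1274 of them in the same direction.

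**Figure D2:**
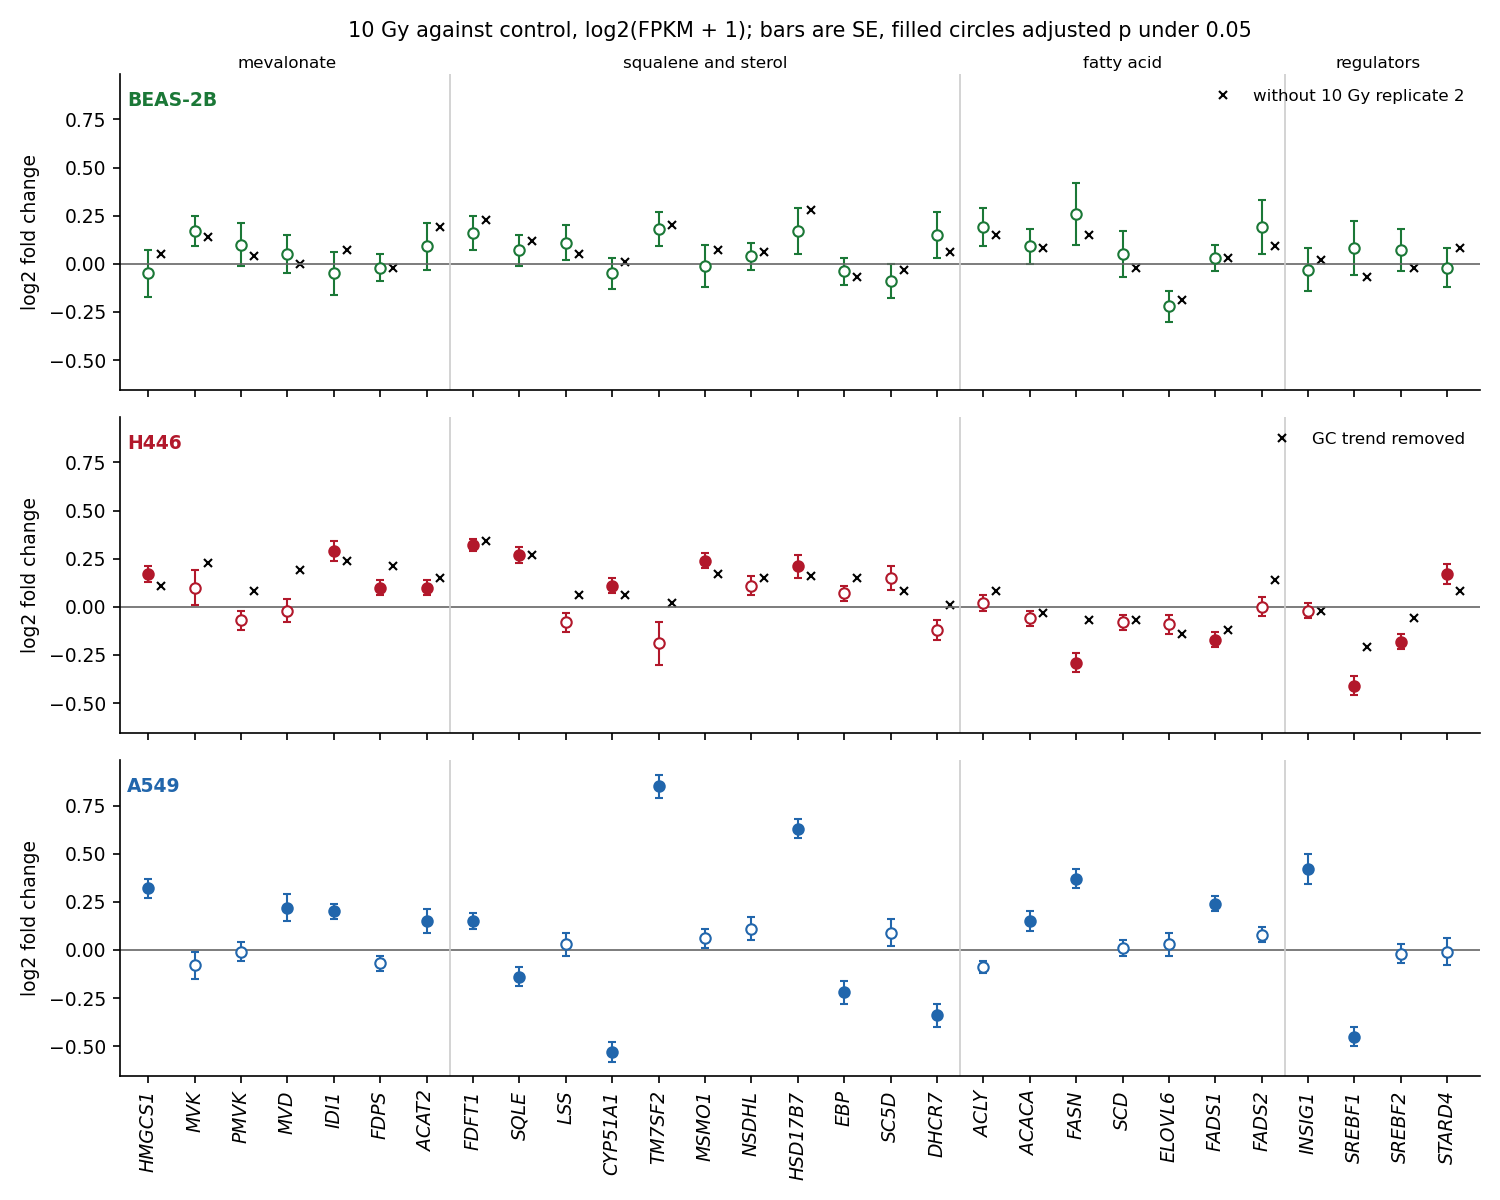
Log2 fold change of each member, 10 Gy against control, with its SE from limma, for BEAS-2B, H446 and A549, on the log2(FPKM + 1) scale. Filled circles are past an adjusted p of 0.05, and crosses give the value without 10 Gy replicate 2 (BEAS-2B) or with the GC trend removed (H446), with TM7SF2 at 0.85 and CYP51A1 at -0.53 as the ends of the range in A549.

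In the mevalonate pathway, 4 of 7 genes rose in A549 (HMGCS1, MVD, IDI1 and ACAT2), 4 rose in H446 (HMGCS1, IDI1, FDPS and ACAT2), and none fell in either. These are 57.1% of the 7 in each line, where 25.3% of all genes rose in A549 and 14.8% in H446. The median log2 change was 0.15 in A549, 0.10 in H446 (0.19 with the GC trend removed) and 0.05 in BEAS-2B (0.05 without replicate 2).
HMGCS1, the HMG-CoA synthase, was at 17.9, 17.00 and 18.8 FPKM in A549 controls and 21.5, 23.9 and 22.3 after 10 Gy. In H446 it was at 34.1, 34.1 and 32.5 against 38.6, 36.4 and 38.7 FPKM, and in BEAS-2B at 50.5, 41.1 and 53.3 against 53.3, 39.9 and 46.4. All irradiated libraries of both cancer lines lay above their controls, while those of BEAS-2B overlapped with them. The log2 fold change was 0.32 ± 0.05 (SE) in A549 (adjusted p = 3.9e-04) and 0.17 ± 0.04 in H446 (0.00827), where the GC-corrected value, 0.11, was no longer called (adjusted p = 0.0593). In BEAS-2B it was -0.05 ± 0.12, and 0.05 ± 0.11 without replicate 2.
IDI1 was at 21.1, 20.1 and 20.97 FPKM in A549 controls and at 23.4, 24.02 and 24.2 after 10 Gy. In H446 it was at 82.7, 76.3 and 78.8 against 91.6, 105 and 96.1 FPKM, and in BEAS-2B at 57.8, 54.1 and 62.01 against 58.3, 46.9 and 63.3. The groups were separate in both cancer lines and overlapped in BEAS-2B, where replicate 2 was the lowest of the 6. IDI1 had log2 fold changes of 0.20 ± 0.04 in A549 (adjusted p = 0.00211), 0.29 ± 0.05 in H446 (0.00154; GC-corrected 0.24, 0.00356), and -0.05 ± 0.11 in BEAS-2B (0.07 ± 0.09 without replicate 2). The A549 call was lost with all 18 libraries in 1 fit, as given above.
ACAT2 changed less. It was at 29.4, 29.6 and 27.6 FPKM in A549 controls and 31.4, 34.9 and 29.98 after 10 Gy, and in H446 at 65.5, 65.6 and 66.9 against 73.3, 68.97 and 70.9. In BEAS-2B the irradiated libraries were at 107, 94.9 and 130.00 FPKM and overlapped with the controls given above. The log2 fold changes of 0.15 ± 0.06 in A549 and 0.10 ± 0.04 in H446 (GC-corrected 0.15) passed the test with adjusted p = 0.0412 and 0.0392, and in each line the call was lost when any of 5 of the 6 libraries was left out, the highest adjusted p being 0.175 without A549 10 Gy replicate 2 and 0.116 without H446 control replicate 2. In BEAS-2B the value was 0.09 ± 0.12, and 0.19 ± 0.11 without replicate 2.
Of the other mevalonate genes, MVD rose in A549 from 9.32 ± 0.834 to 11.0 ± 0.48 FPKM (SD, n = 3; log2 fold change 0.22 ± 0.07, adjusted p = 0.0144). That call was lost without 10 Gy replicate 1 (0.0503) or control replicate 1 (0.0686). In H446, MVD was at -0.02 ± 0.06, not called, and at 0.19, called higher, once the GC trend was removed (adjusted p = 0.0311). The farnesyl diphosphate synthase FDPS rose in H446 from 199.0 ± 2.08 to 214.0 ± 6.95 FPKM (0.10 ± 0.04, adjusted p = 0.0448; GC-corrected 0.21, 6.5e-04), a call lost without any of 5 libraries (adjusted p up to 0.135, without control replicate 2). In A549 FDPS was at -0.07 ± 0.04. The kinases MVK and PMVK passed the test in no line, with log2 fold changes from -0.08 to 0.17, although MVK in H446 did so once the GC trend was removed (0.23, 0.0363).

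Squalene and sterol synthesis held both the largest rise and the largest fall among the members, in A549 cells. There 3 of 11 genes rose (TM7SF2, HSD17B7 and FDFT1) and 4 fell (CYP51A1, DHCR7, EBP and SQLE), with a median log2 change of 0.06. These 27.3% higher and 36.4% lower stand beside 25.3% and 26.4% of all genes. In H446, 5 rose (FDFT1, SQLE, MSMO1, HSD17B7 and CYP51A1) and none fell, with a median of 0.11, or 0.15 with the GC trend removed. The 5 are 45.5% of the 11, where 14.8% of all genes rose. In BEAS-2B the median was 0.07, and 0.06 without replicate 2, with no call.
TM7SF2 (chromosome 11, 65111872 to 65116230), a reductase that acts on the sterol made by CYP51A1, was at 13.9, 13.6 and 15.7 FPKM in A549 controls and at 27.8, 27.3 and 24.97 after 10 Gy. In BEAS-2B it was at 13.8, 13.8 and 13.3 against 14.04, 15.1 and 17.8, and in H446 at 2.61, 2.24 and 2.82 against 2.40, 2.32 and 1.65. The irradiated libraries of A549 lay far above their controls, those of BEAS-2B just above theirs, and those of H446 overlapped with theirs. The log2 fold change was 0.85 ± 0.06 in A549 (adjusted p = 4.2e-07), 0.18 ± 0.09 in BEAS-2B (0.20 ± 0.10 without replicate 2; adjusted p = 0.445 with all libraries) and -0.19 ± 0.11 in H446 (GC-corrected 0.02). VPS51, which overlaps TM7SF2 on the same strand, was at -0.02 ± 0.06 in A549 and was not called.
HSD17B7 (chromosome 1, 162790702 to 162812823), the sterol ketoreductase, was at 12.2, 11.9 and 11.3 FPKM in A549 controls and 18.99, 19.7 and 17.98 after 10 Gy. In H446 the values were 9.45, 10.1 and 8.96 against 11.9, 10.4 and 11.1, and in BEAS-2B 24.6, 18.1 and 22.4 against 24.9, 20.9 and 27.7. The groups were far apart in A549, close but separate in H446, and overlapping in BEAS-2B. The log2 fold change was 0.63 ± 0.05 in A549 (adjusted p = 1.3e-06) and 0.21 ± 0.06 in H446 (0.0241). The H446 call was lost with the GC trend removed (0.16, 0.0787) and when 10 Gy replicate 1 or 3 or control replicate 1 or 3 was left out (adjusted p 0.0555 to 0.092). BEAS-2B gave 0.17 ± 0.12, and 0.28 ± 0.12 without replicate 2.
CYP51A1 (chromosome 7, 92112153 to 92134803), the lanosterol demethylase, moved the other way in A549, from 27.9, 26.1 and 28.4 FPKM to 18.6, 18.6 and 19.1. In H446 it was at 31.2, 30.2 and 31.6 against 32.7, 33.4 and 34.4, and in BEAS-2B at 43.8, 41.9 and 44.7 against 44.7, 38.2 and 43.00. All irradiated A549 libraries lay below their controls, all irradiated H446 libraries slightly above theirs, and those of BEAS-2B overlapped with theirs. In A549 it fell by 0.53 ± 0.05 on the log2 scale (adjusted p = 2.2e-06). The H446 rise of 0.11 ± 0.04 (adjusted p = 0.0463) was lost with the GC trend removed (0.06, 0.193) and without any of 5 of the 6 libraries (adjusted p up to 0.162, without control replicate 2). In BEAS-2B the value was -0.05 ± 0.08, and 0.01 ± 0.08 without replicate 2.
FDFT1, the squalene synthase that commits farnesyl units to sterols, was at 95.2, 94.1 and 96.8 FPKM in H446 controls and 119.6, 119 and 118 after 10 Gy. In A549 it was at 31.8, 31.2 and 29.8 against 35.4, 33.9 and 34.1, and in BEAS-2B at 77.9, 75.8 and 84.3 against 97.1, 79.3 and 89.97. The cancer lines showed no overlap of groups, and in BEAS-2B the library labelled 10 Gy replicate 2 lay within the controls. The log2 fold change was 0.32 ± 0.03 in H446 (adjusted p = 5.8e-05; GC-corrected 0.34), 0.15 ± 0.04 in A549 (0.00892) and 0.16 ± 0.09 in BEAS-2B (0.23 ± 0.08 without replicate 2).
SQLE, the squalene epoxidase that follows FDFT1, was at 34.9, 33.5 and 33.2 FPKM in H446 controls and 40.1, 41.9 and 40.9 after 10 Gy. In A549 it was at 24.6, 25.8 and 25.4 against 21.2, 23.8 and 23.7, and in BEAS-2B at 40.5, 42.6 and 39.9 against 48.3, 40.2 and 41.1. The irradiated libraries were above the controls in H446, below them in A549, and overlapped with them in BEAS-2B. It rose by 0.27 ± 0.04 in H446 (adjusted p = 5.1e-04; GC-corrected 0.27) and fell by 0.14 ± 0.05 in A549 (0.0376), on the log2 scale. The A549 call was lost without 10 Gy replicate 1 (0.151) and without any control library (replicates 1, 2 and 3, adjusted p 0.053 to 0.101). For BEAS-2B the value was 0.07 ± 0.08, and 0.12 ± 0.09 without replicate 2.
MSMO1 rose in H446 from 43.0 ± 1.28 to 50.9 ± 0.494 FPKM (SD, n = 3; 0.24 ± 0.04, adjusted p = 7.9e-04; GC-corrected 0.17) and was at 0.06 ± 0.05 in A549. DHCR7, the last reductase on the way to cholesterol, fell in A549 from 18.2 ± 1.2 to 14.2 ± 0.968 FPKM (adjusted p = 6.2e-04), and EBP from 39.0 ± 1.69 to 33.4 ± 2.63 FPKM (0.00596). DHCR7 in H446 was at -0.12 ± 0.05 and not called (0.0582; GC-corrected 0.01, 0.827). LSS (lanosterol synthase), NSDHL (a sterol dehydrogenase) and SC5D were called in no line, with log2 fold changes from -0.09 to 0.15, and of these NSDHL passed the test in H446 once the GC trend was removed (0.15, 0.0246), as did EBP (0.15, 0.0108).

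**Figure D3:**
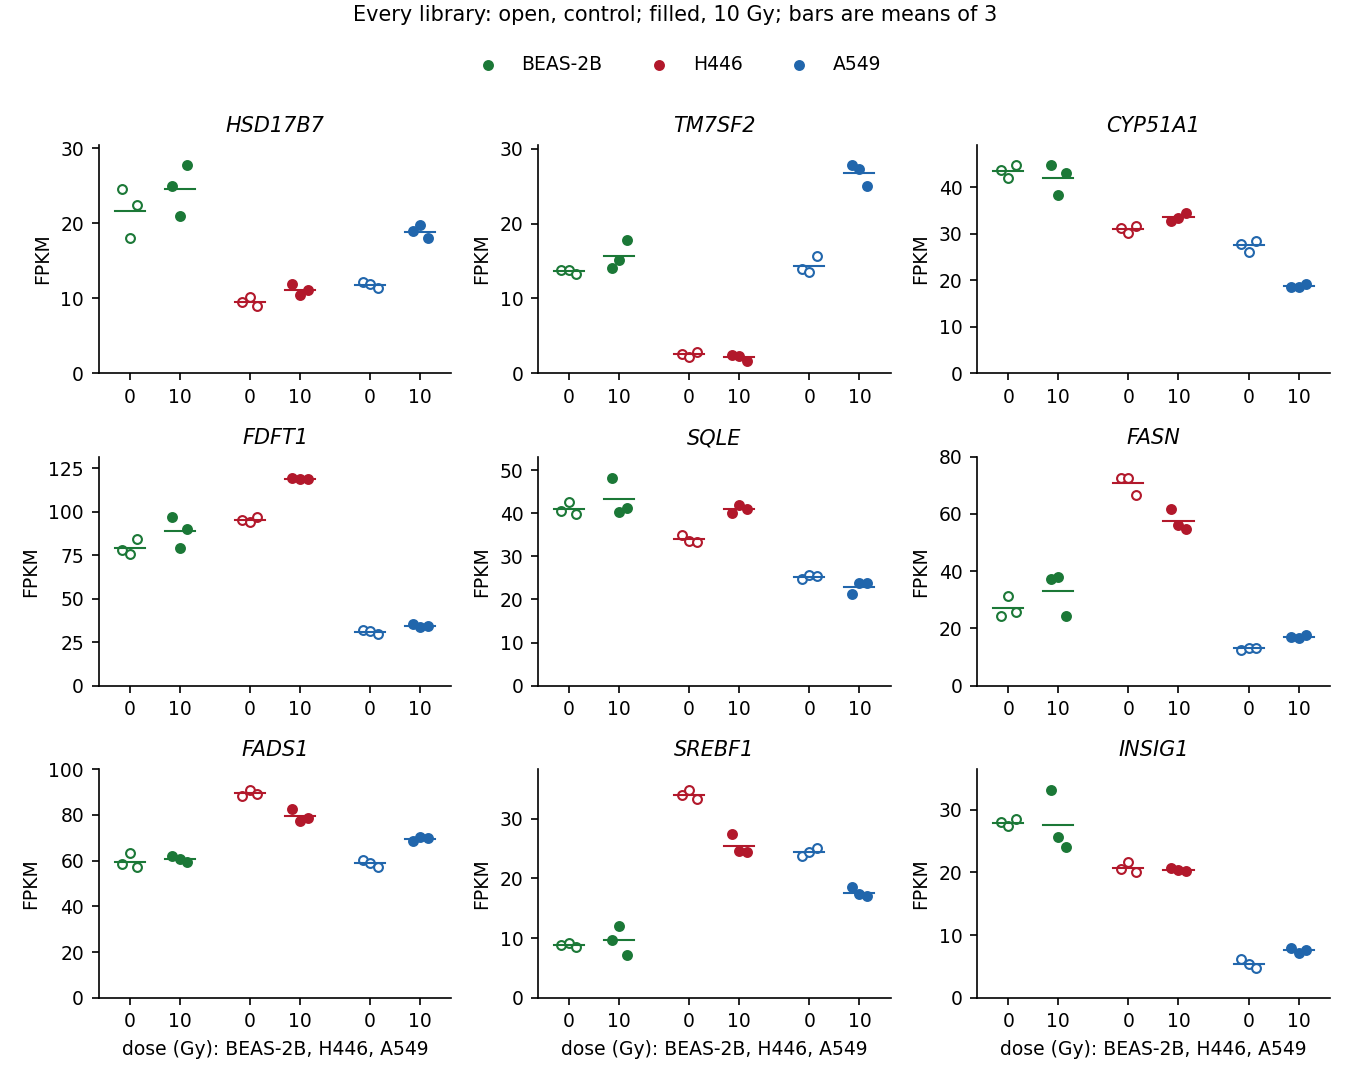
FPKM of 9 members in every library, by line and dose (0 or 10 Gy), with open circles for controls, filled circles for 10 Gy and bars for means of 3; axes start at 0. In A549, TM7SF2 and HSD17B7 are above and CYP51A1 and SREBF1 below all controls, while in BEAS-2B the groups of all but TM7SF2 overlap.

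FASN and FADS1 moved in opposite directions in the cancer lines. In A549, 3 of 7 rose (FASN, FADS1 and ACACA) and none fell, where 25.3% and 26.4% of all genes did, with a median log2 change of 0.08. In H446 none rose and 2 fell (FASN and FADS1), where 14.8% and 23.6% of all genes did, with a median of -0.08, or -0.07 with the GC trend removed. In BEAS-2B the median was 0.09, and 0.08 without replicate 2, with no call.
FASN was at 12.5, 13.3 and 13.3 FPKM in A549 controls and at 16.9, 16.8 and 17.6 after 10 Gy. In H446 it was at 72.7, 72.7 and 66.6 against 61.8, 56.2 and 54.7, and in BEAS-2B at 24.5, 31.4 and 25.6 against 37.2, 37.9 and 24.2. No groups overlapped in the cancer lines, whereas in BEAS-2B the libraries labelled 10 Gy replicates 1 and 2 were the highest of the 6 and that labelled replicate 3 the lowest. FASN rose by 0.37 ± 0.05 in A549 (adjusted p = 6.4e-05) and fell by 0.29 ± 0.05 in H446 (0.00176). Its transcript had the highest GC content of the members, 65.3%, and with the GC trend removed the H446 value was -0.07, not called (adjusted p = 0.167). The BEAS-2B value was 0.26 ± 0.16, and 0.15 ± 0.16 without replicate 2.
FADS1, a desaturase of polyunsaturated fatty acid synthesis, was at 60.1, 59.1 and 57.3 FPKM in A549 controls and 68.8, 70.5 and 69.8 after 10 Gy. In H446 it was at 88.2, 90.98 and 89.3 against 82.7, 77.4 and 78.6, and in BEAS-2B at 58.5, 63.3 and 57.02 against 61.9, 60.6 and 59.5. The irradiated libraries lay above all controls in A549 and below all controls in H446, and within their range in BEAS-2B. FADS1 had a log2 fold change of 0.24 ± 0.04 in A549 (adjusted p = 1.8e-04), -0.17 ± 0.04 in H446 (0.00511; GC-corrected -0.12, 0.0139) and 0.03 ± 0.07 in BEAS-2B (0.03 ± 0.08 without replicate 2).
ACACA, the acetyl-CoA carboxylase, rose in A549 from 13.9 ± 0.437 to 15.5 ± 0.598 FPKM (SD, n = 3; 0.15 ± 0.05, adjusted p = 0.0279), a call lost without 10 Gy replicate 2 or 3 or control replicate 1 or 2 (adjusted p 0.056 to 0.0967). ACLY was called in no line, at -0.09 ± 0.03 in A549 (0.0516; called lower with the GC trend removed, 0.0473, and with quantile normalization, -0.10 and 0.0326) and 0.19 ± 0.10 in BEAS-2B (0.15 ± 0.11 without replicate 2). SCD was at 0.01 ± 0.04 in A549 and -0.08 ± 0.04 in H446, and FADS2 at 0.08 ± 0.04 (0.13 and called higher with quantile normalization, adjusted p = 0.0248) and 0.00 ± 0.05 (GC-corrected 0.14, 0.0293, called higher). The elongase ELOVL6 was the member furthest from 0 in BEAS-2B after FASN, at 18.1, 17.3 and 17.3 FPKM in controls and 14.7, 14.2 and 15.96 after 10 Gy, with no overlap. Its log2 fold change of -0.22 ± 0.08 (-0.19 ± 0.08 without replicate 2) was not called within the line (adjusted p = 0.295), but was when all 18 libraries shared 1 fit (0.032), where 2.76% of all genes were called lower. In the same fit without replicate 2, added after the data were seen, ELOVL6 was not called (-0.19, adjusted p = 0.0866) and FDFT1 was the 1 member called, higher (0.23, adjusted p = 0.00618), where 5.65% of all genes were called higher and 2.11% lower.

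Of the regulators, SREBF1 fell in both cancer lines. It lies on chromosome 17 (17811334 to 17836986) and encodes SREBP1, which favours fatty acid genes. It was at 23.8, 24.4 and 25.1 FPKM in A549 controls and 18.6, 17.3 and 16.98 after 10 Gy, and in H446 at 33.95, 34.9 and 33.2 against 27.5, 24.5 and 24.4. In BEAS-2B it was at 8.81, 9.25 and 8.59 against 9.72, 12.03 and 7.23. All irradiated libraries of both cancer lines were below their controls, and those of BEAS-2B lay on both sides of theirs. The log2 fold change was -0.45 ± 0.05 in A549 (adjusted p = 1.2e-05) and -0.41 ± 0.05 in H446 (2.1e-04), where it was -0.21 and still called with the GC trend removed (0.00208). For SREBF1 in BEAS-2B the value was 0.08 ± 0.14, and -0.07 ± 0.11 without replicate 2. In A549, FASN and FADS1 thus rose while SREBF1 fell.
SREBF2, which encodes SREBP2 and favours cholesterol genes, was at 50.3, 50.7 and 47.9 FPKM in H446 controls and 46.1, 41.5 and 43.7 after 10 Gy, without overlap. In A549 it was at 15.4, 14.5 and 16.1 after 10 Gy and in BEAS-2B at 47.99, 51.1 and 37.2, in both cases overlapping with the controls given above. It fell by 0.18 ± 0.04 on the log2 scale in H446 (adjusted p = 0.0103), a call lost with the GC trend removed (-0.06, 0.242). The values were -0.02 ± 0.05 in A549 and 0.07 ± 0.11 in BEAS-2B (-0.02 ± 0.11 without replicate 2).
INSIG1 rose in A549, where its control level was lowest. It was at 6.13, 5.42 and 4.80 FPKM in the controls and 7.93, 7.16 and 7.70 after 10 Gy, at 20.5, 21.6 and 20.02 against 20.6, 20.4 and 20.3 in H446, and at 27.98, 27.3 and 28.6 against 33.2, 25.6 and 24.1 in BEAS-2B. The groups were separate in A549 and overlapped in the other lines. INSIG1 had log2 fold changes of 0.42 ± 0.08 in A549 (adjusted p = 7.6e-04), -0.02 ± 0.04 in H446 (GC-corrected -0.02) and -0.03 ± 0.11 in BEAS-2B (0.02 ± 0.12 without replicate 2). STARD4 rose in H446 from 16.2 ± 0.689 to 18.4 ± 0.197 FPKM (SD, n = 3; 0.17 ± 0.05, adjusted p = 0.012), and was not called with the GC trend removed (0.08, 0.193) or without control replicate 3 (0.14, adjusted p = 0.0559).

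The members that rose and those that fell in H446 differed in GC content. The transcripts of the 10 members that rose had a median GC content of 41.6% (34.2% to 56.0%), those of the 4 that fell 60.0% (50.1% to 65.3%), and those of the 15 not called 53.5%. Over all genes tested, the median log2 change in H446 went from 0.07 at 35 to 40% GC to -0.25 at 65 to 70%. In BEAS-2B it went the other way, from -0.11 to 0.12 (-0.07 to 0.06 without replicate 2), and with the GC trend removed, that library included, the members' median was 0.03. In A549 the medians over the same range were between -0.02 and 0.00, and the members that rose and fell had median GC contents of 48.7% and 53.5%. With the GC trend removed, 8 of the 14 H446 calls were kept and HMGCS1, HSD17B7, CYP51A1, STARD4, FASN and SREBF2 lost theirs. Of the mevalonate genes 5 of 7 and of the sterol genes 5 of 11 were then called higher, where 15.9% of all genes were, and the values of the 18 ran from 0.01 to 0.34, where 50.5% of all genes lay above 0, while SREBF1, FADS1 and ELOVL6 were called lower.

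**Figure D4:**
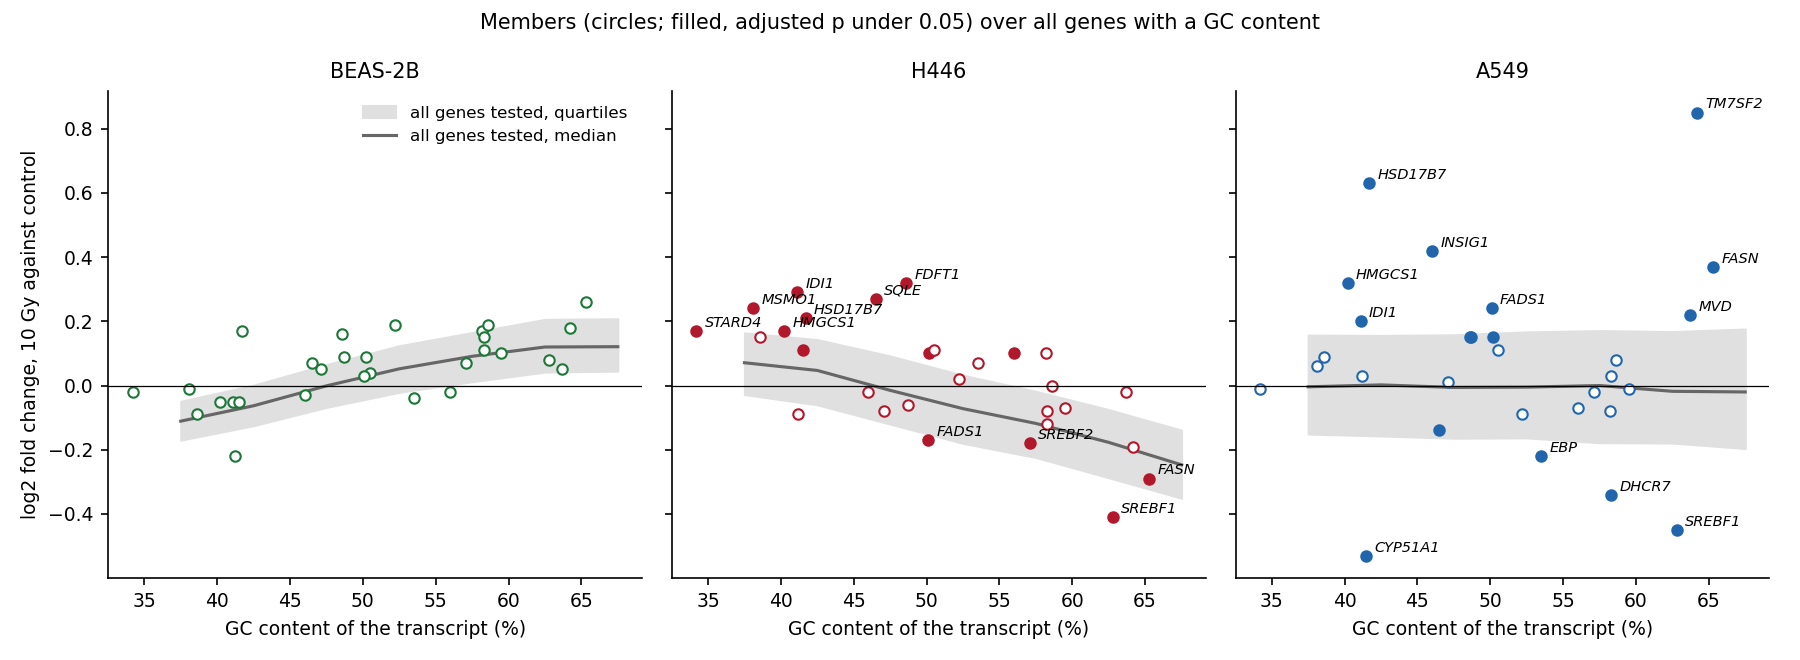
Log2 fold change of each member (10 Gy against control) over the GC content of its transcript in BEAS-2B, H446 and A549, with filled circles for an adjusted p under 0.05, the grey line for the median of all genes tested in bins of 5 points of GC, and the band for their quartiles. The grey line rises with GC content in BEAS-2B, from -0.11 to 0.12, falls in H446, from 0.07 to -0.25, and is level in A549.

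The difference between lines in the response itself was tested with all 18 libraries in 1 fit, over 13071 genes. This fit gives each gene 1 spread for all lines. Fitted within the line, the SE of a member's log2 fold change was 0.069 to 0.157 in BEAS-2B and 0.03 to 0.08 in A549. The part of this in the calls was not tested. Between A549 and H446, 9 members differed, where 34.6% of all genes did, and TM7SF2 was furthest apart, by 1.04 ± 0.14 on the log2 scale (adjusted p = 1.8e-05), followed by FASN (0.66 ± 0.17), CYP51A1 (-0.63 ± 0.08), INSIG1, HSD17B7, SQLE and FADS1 (absolute 0.41 to 0.44), EBP (-0.29) and FDPS (-0.17). Between BEAS-2B and A549, 10 members differed, where 30.6% of all genes did. TM7SF2, SREBF1, DHCR7, CYP51A1, HSD17B7, INSIG1 and FADS1 still differed without BEAS-2B 10 Gy replicate 2, whereas HMGCS1, ACLY and ELOVL6 did not pass the test without it, and HMGCS1 and ELOVL6 did not with the GC trend removed (adjusted p = 0.0547 each). Between BEAS-2B and H446, 4 members differed (FASN, SREBF1, IDI1 and FADS1), where 22.7% of all genes did. Without that library FADS1 (0.20, adjusted p = 0.0445) and SREBF1 (0.33, 0.0462) remained past the threshold, and with the GC trend removed none of the 4 did (adjusted p 0.103 to 0.285). Leaving out single libraries ended these 4 calls for 6 to 8 of the 12 libraries, those of ACLY, HMGCS1 and ELOVL6 for 9, 7 and 6, and that of FDPS for 10 (adjusted p up to 0.0956). HSD17B7 lost its difference between A549 and H446 for 4 libraries (adjusted p up to 0.0568) and that between BEAS-2B and A549 for 1. The comparisons share libraries, so the counts are not independent.

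Other genes of the pathways were read from 5 lists, whose counts stand against 25.3% of all genes higher and 26.4% lower in A549, and 14.8% and 23.6% in H446. Of 8 further sterol and isoprenoid enzymes, 1 rose and 2 fell in A549, and none were called in H446, where 1 was higher with the GC trend removed. Geranylgeranyl diphosphate synthase GGPS1 fell in A549 from 19.1 ± 0.768 to 15.3 ± 0.58 FPKM (SD, n = 3).
Of 7 genes of SREBP processing and the liver X receptor, 3 rose and 1 fell in A549, while 0 rose and 4 fell in H446. With the GC trend removed in H446, NR1H3 and NR1H2 were still called lower, the escort SCAP (-0.01, adjusted p = 0.832) and RXRA (-0.08, 0.209) were not, and the protease MBTPS2 was (-0.15, 0.0184). The receptor partner RXRA rose in A549 (0.37 ± 0.06) and so did INSIG2 (0.29 ± 0.09). In H446 both liver X receptors fell, NR1H3 from 14.8 ± 1.03 to 11.6 ± 0.35 FPKM (GC-corrected -0.23, adjusted p = 0.00965) and NR1H2 from 20.7 ± 1.07 to 16.7 ± 0.38 (GC-corrected -0.13, adjusted p = 0.041).
Of 14 genes of fatty acid supply, elongation and activation, 6 rose and 2 fell in A549, and 3 rose and 5 fell in H446. With the GC trend removed in H446, 3 rose and 3 fell: ACACB, TECR and FADS3 lost their calls (adjusted p 0.102 to 0.264) and ME1, the malic enzyme, was called lower (-0.15, 0.0181). The desaturase SCD5 rose in A549 (0.59 ± 0.05) and the elongase ELOVL1 fell (-0.50 ± 0.04). In H446 the citrate carrier SLC25A1 fell from 48.0 ± 0.306 to 35.2 ± 2.97 FPKM (GC-corrected -0.21) and ACSL3, an acyl-CoA synthetase, rose from 56.4 ± 0.176 to 65.2 ± 3.39 (GC-corrected 0.13).
Of 9 genes of sterol export, esterification and trafficking, 3 rose and 1 fell in A549, and 2 rose and 2 fell in H446. The cholesterol exporter ABCA1 rose in A549 from 4.64 ± 0.284 to 7.37 ± 0.372 FPKM and NPC1, which moves cholesterol out of lysosomes, fell from 46.2 ± 1.84 to 36.3 ± 1.43. In H446 the exporter ABCG1 fell (-0.33 ± 0.06; GC-corrected -0.25), as did LPCAT3 (-0.20 ± 0.04; GC-corrected -0.13). The 2 that rose there, named after their values were seen, were the oxysterol-binding protein OSBP (0.19 ± 0.04, adjusted p = 0.00522; GC-corrected 0.23) and the esterifying enzyme SOAT1 (0.12 ± 0.04, 0.0289), of which SOAT1 was not called with the GC trend removed (0.06, 0.202) while NPC1 was (0.13, 0.021).
Of 10 genes of fatty acid oxidation, 5 rose and 1 fell in A549 (ECI1, at -0.34 ± 0.06), and 2 rose and 2 fell in H446, where CPT1A, the carnitine palmitoyltransferase, was at -0.24 ± 0.05 (GC-corrected -0.19) and ECI1 at -0.23 ± 0.04 (GC-corrected -0.06, not called). The 2 that rose, also named after their values were seen, were the subunits of the trifunctional protein, HADHA (0.14 ± 0.04, adjusted p = 0.00928; GC-corrected 0.18) and HADHB (0.15 ± 0.04, 0.00939; GC-corrected 0.12), and with the GC trend removed CPT2 was called lower (-0.17, 0.0393). No gene of the 5 lists was called in BEAS-2B, with or without replicate 2.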

How the data were processed

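Poly(A) RNA of 18 libraries, 3 per group, was sequenced by the authors, and 1 table of 18475 genes by Entrez ID was deposited. Its FPKM values, as deposited by the authors, carry at most 2 decimals, and the unit was inferred from the values and from RSEM (1.2.12), which the submitters' processing notes name beside HISAT2 (2.0.4), Bowtie2 (2.2.5) and hg38 with no role given. The annotation and the use of strand in counting were not given in the sources used here. Since FPKM are no counts, no count model was used, and no interval from read counts was given. FPKM were analysed as log2(FPKM + 1), whose fold changes understate those of low genes, with limma 3.58.1 (R 4.3.3; eBayes with a trend on the mean) and Benjamini-Hochberg adjustment over all genes tested. Genes at FPKM of at least 1 in at least 3 libraries were tested, within each line for irradiation and over the 9 controls for the lines. For differences in response, a gene had to pass within at least 1 line. Calls needed an adjusted p under 0.05, and between lines an absolute log2 difference of at least 1. The GC trend was a loess fit (span 0.5) per library over the tested genes with a GC content, 11380 within H446 and 11642 within BEAS-2B. A GC content was found for 17850 genes of the whole table. Scripts were tested on simulated data. The members and lists were chosen with earlier results of these data known. Values in every library were given for the members called in the most lines and, among these, with the largest changes, and for SREBF1, SREBF2 and INSIG1; of other lists, at most 2 called genes a line, those with the largest absolute log2 fold changes in either direction and a mean of at least 5 FPKM, were named, except some that are not reported here and those said to be named after their values were seen. Normalization, filter, pseudocount, variance model, replicate block, GC content, libraries left out and samples in the fit were varied.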

Additional observations from a re-analysis of the deposited data

Results flagged for a closer look

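The responses of 2 lines to 10 Gy differed for 23 pairs of a member and a comparison (limma interaction term, adjusted p under 0.05), each given as the difference of 2 log2 fold changes. The response in BEAS-2B minus that in H446 was 0.55 for FASN, 0.49 for SREBF1, 0.20 for FADS1 and -0.35 for IDI1. Without BEAS-2B 10 Gy replicate 2, FASN (0.44, adjusted p = 0.0694) and IDI1 (-0.23, 0.0709) lost their calls, while SREBF1 (0.33) and FADS1 (0.20) kept theirs.

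The response in BEAS-2B minus that in A549 was 0.53 for SREBF1, 0.49 for DHCR7, 0.47 for CYP51A1, 0.27 for ACLY, -0.21 for FADS1, -0.25 for ELOVL6, -0.37 for HMGCS1, -0.45 for INSIG1, -0.46 for HSD17B7 and -0.67 for TM7SF2. Without BEAS-2B 10 Gy replicate 2, HMGCS1 (-0.27, adjusted p = 0.087), ACLY (0.24, 0.0733) and ELOVL6 (-0.22, 0.0623) lost their calls and the other 7 ranged from -0.65 (TM7SF2) to 0.54 (CYP51A1). With the GC trend removed, HMGCS1 and ELOVL6 lost their calls in this comparison (adjusted p = 0.0547 each), and FASN, SREBF1, FADS1 and IDI1 lost theirs in that of BEAS-2B with H446 (adjusted p 0.103 to 0.285).

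The response in A549 minus that in H446 was 1.04 for TM7SF2, 0.66 for FASN, 0.44 for INSIG1, 0.43 for HSD17B7, 0.41 for FADS1, -0.17 for FDPS, -0.29 for EBP, -0.41 for SQLE and -0.63 for CYP51A1. With the GC trend removed, these 9 kept their calls.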

How the results depend on the processing

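Of 85 calls of a member in a comparison, 59 were kept under every alternative, among them 12 of 12 between A549 and BEAS-2B controls, 13 of 13 between H446 and A549, 10 of 16 after irradiation in A549, 6 of 14 in H446, and 0 of 4 for the response of BEAS-2B minus that of H446. None of the 85 changed sign. MVD in H446, not called at -0.02, was called higher at 0.19 with the GC trend removed, and 139 other sign changes were between member values called under neither setting, among them TM7SF2 and DHCR7 in H446 with the GC trend removed. With all 18 libraries in 1 fit, 1 member was called lower in BEAS-2B (none without 10 Gy replicate 2, where FDFT1 was called higher), 8 were called higher and 4 lower in A549, and 4 higher and 2 lower in H446; without a filter on low values 6 were called higher in H446. Without the limit on the fold change, 11 members were higher and 14 lower in H446 than in BEAS-2B, 5 and 20 in A549 than in BEAS-2B, and 21 and 5 in H446 than in A549, where 36% to 41.4% of all genes were higher and 43.1% to 46.7% lower. For the response of BEAS-2B minus that of H446, 2 members were lower with quantile normalization, with the replicate block or with the GC trend removed, 0 were lower without a filter, and 0 were higher with the GC trend removed. Leaving out 1 library gave 5 to 9 higher members in H446 (5 without control replicate 3, 6 without control replicate 1). For BEAS-2B minus H446 it gave 0 to 9 higher and 0 to 4 lower (9 higher without BEAS-2B 10 Gy replicate 3, 5 higher and 4 lower without BEAS-2B control replicate 2, and 0 higher and 0 lower without H446 10 Gy replicate 2 or 3 or BEAS-2B control replicate 1 or 3). For BEAS-2B minus A549 it gave 3 to 7 lower (3 without BEAS-2B control replicate 1). Whether the replicate numbers pair the samples could not be told. Within lines, same-numbered deviations correlated at -0.13 to 0.32 and differently numbered ones at -0.5 to 0.38. With the replicate block, 344 genes were called higher and 95 lower in BEAS-2B, none of them members, where none were without it, and 7 members were higher in H446. The causes of these changes were not tested. The 3 libraries a group limit the precision, most in BEAS-2B, where the SE of a member's log2 fold change was 0.069 to 0.157.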
